A study of Mus musculus with 2 samples.

Results

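Myelin is the multilayered membrane that oligodendrocytes wrap around axons. Its compact layers form as basic proteins draw the cytoplasmic faces of the membrane together, and tight junctions and galactolipids seal and stabilise the sheath, while cytoplasm-filled channels at its edges keep a separate set of proteins. In the hippocampus, myelinated fibres run mainly in the alveus, the fimbria and the layers that perforant axons cross. The 9 genes described here encode components of that sheath or the enzymes that make its lipids: Mbp, Mobp, Mal, Cldn11, Mog, Cnp1 (now Cnp), Mag, Ugt8a and Fa2h. They were chosen by symbol in the platform's probe annotation. Of the 9, 8 had a named probe, 1 each, among 16446 named genes, and all 8 were measured. No probe carried the name Mog, the glycoprotein of the outermost myelin layer, and it was not analysed here.

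The samples were hippocampal RNA from 3 groups of mice, each a pool of 5 animals. AtrxdE2 mice carried an allele, AtrxΔE2, of Atrx, which encodes a chromatin remodelling ATPase. AtrxdE2+TMPyP4 mice carried the same allele and were injected intraperitoneally with TMPyP4, a porphyrin that binds G-quadruplex nucleic acid, at 30 mg/kg each time, 2 times weekly, between postnatal days 30 and 90. WT mice were wild type. The sources used here do not give the age of the other groups, the sex of the animals or any vehicle injection. On 1 array the AtrxdE2 pool (Cy3) was hybridised with WT (Cy5), and on the other the AtrxdE2+TMPyP4 pool (Cy3) with WT (Cy5). The mutant pool was in Cy3 both times, so group and dye cannot be told apart, and both comparisons use the same control group. The labels do not say whether both WT hybridisations came from 1 pool.

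With 1 pool a group there is no replicate error and no p-value. Values are therefore set against all 13630 measured named genes and against the difference between both WT hybridisations. Across these genes the SD of the log2 ratio was 0.19 for AtrxdE2 over WT and 0.20 for AtrxdE2+TMPyP4 over WT, with medians of -0.0029 and 0.0095. The log2 WT signals of the arrays differed with an SD of 0.29 after quantile normalization. Above the blank spots, the channels had median signals of 64.6 for AtrxdE2 and 42.2 for WT on the first array, and 79.0 for AtrxdE2+TMPyP4 and 36.0 for WT on the second, so raw signals of Cy3 and Cy5 cannot be compared directly. The probe of Atrx had a signal of 19.1 in AtrxdE2 and 47.4 in WT, and of 71.5 in AtrxdE2+TMPyP4 and 54.6 in WT, with log2 ratios of -0.68 and -0.36. Where it lies relative to the altered stretch of the gene is not given, so it does not check the labels.

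Oligodendrocyte genes are known targets of SOX10, a SOX protein whose family binds the core ACAAAG or ACAATG, and of MYRF, which binds CTGGCAC. The 250 bases before the start of 7 of the 9 genes were read from RefSeq (GRCm38.p6), and these letters were searched on both strands together with the E-boxes CAGCTG and CAGATG. Mbp and Fa2h were not among the 7. For Cnp and Ugt8a the start used was not the one of the gene's own RefSeq entry. No 2 motifs overlapped in the printed promoters. Of the 32851 promoters in the table, 16.5% held ACAAAG, 10.7% ACAATG, 4.19% CTGGCAC, 13.0% CAGCTG and 14.4% CAGATG. The 3 promoters that held any of them are shown on the strand of the gene, with the matches in capitals (CTTTGT is ACAAAG on the other strand).
Mobp, chr9:120149492-120149741, plus strand: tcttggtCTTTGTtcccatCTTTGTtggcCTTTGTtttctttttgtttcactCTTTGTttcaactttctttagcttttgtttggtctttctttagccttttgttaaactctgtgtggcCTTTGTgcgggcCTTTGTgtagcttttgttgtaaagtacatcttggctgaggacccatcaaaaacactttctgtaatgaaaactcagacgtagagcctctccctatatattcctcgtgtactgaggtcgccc
Cnp, chr11:100574689-100574938, plus strand: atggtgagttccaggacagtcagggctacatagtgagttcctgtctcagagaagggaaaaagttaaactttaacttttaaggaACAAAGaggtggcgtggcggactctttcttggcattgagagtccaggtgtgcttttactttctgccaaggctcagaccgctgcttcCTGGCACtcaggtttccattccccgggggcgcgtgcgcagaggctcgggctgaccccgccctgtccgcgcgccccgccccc
Mag, chr7:30914923-30915172, minus strand: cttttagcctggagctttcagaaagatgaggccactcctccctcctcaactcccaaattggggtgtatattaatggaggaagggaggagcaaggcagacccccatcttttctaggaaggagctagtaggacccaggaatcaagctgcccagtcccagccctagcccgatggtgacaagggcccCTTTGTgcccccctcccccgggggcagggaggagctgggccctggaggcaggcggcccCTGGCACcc
The Mobp promoter held the SOX core ACAAAG 6 times, and it was the only promoter of the 32851 with that many copies of ACAAAG, where 1.74% held ACAAAG at least 2 times. The Cnp promoter and the Mag promoter each held 1 SOX core and 1 MYRF motif. Mag has 3 listed starts, of which 2 had both motifs in overlapping windows and 1 had neither. The promoters of Mal, Cldn11, Ugt8a and Mog had none of the 5 motifs in this window. A match is a description of the letters and not a binding site.

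In the AtrxdE2 pool all 8 measured genes had a log2 ratio below 0 against WT, where 50.7% of all measured genes did. Their median was -0.55 (SD 0.40 over the 8 genes), against -0.0029 for all genes. Mbp was lowest at -1.32, followed by Mobp at -0.98 and by Cldn11, Mal and Cnp1 between -0.56 and -0.54, while the axon-facing adhesion molecule Mag (-0.32) and the lipid enzymes Fa2h (-0.26) and Ugt8a (-0.12) were nearer to 0. This order below Mbp varied with the processing: Cldn11 was at -0.10 with the local background, the nearest to 0 of the 8, and Fa2h at -0.52 in the authors' deposited table, beside -0.60 for Cldn11, Mal and Cnp1. In bulk tissue, fewer oligodendrocytes and less RNA per oligodendrocyte cannot be told apart. In the AtrxdE2+TMPyP4 pool 7 of the 8 were below 0, against 47.2% of all genes, and the median was -0.50 (SD 0.31 over genes), with Cnp1, Mobp, Mal and Mbp between -0.80 and -0.61 and Mag at 0.034.

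**Figure D1:**
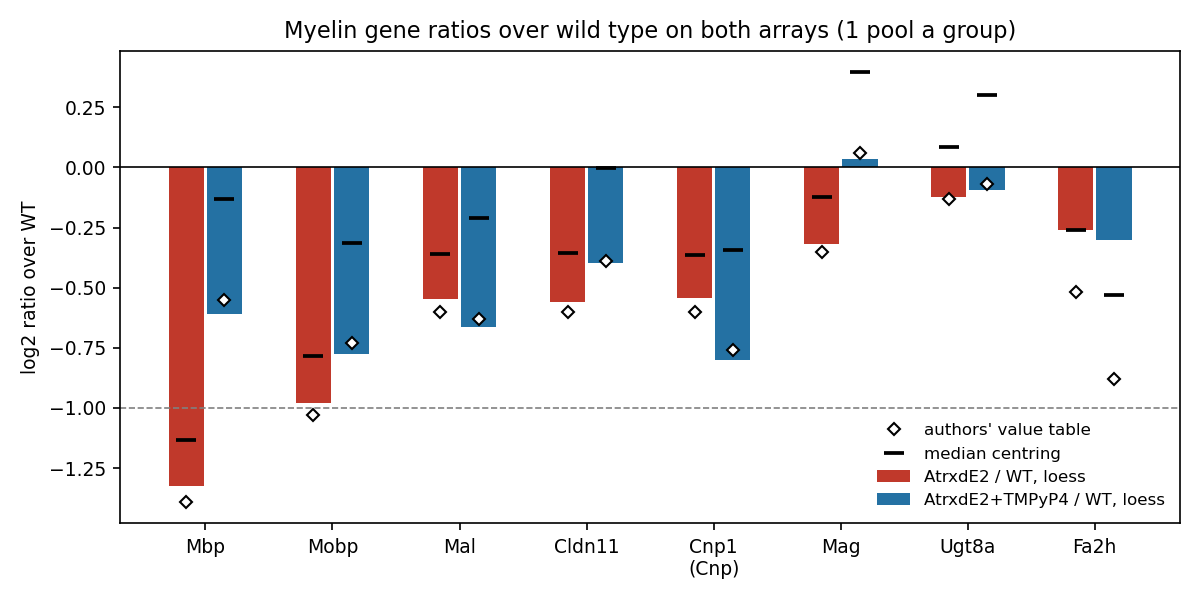
Log2 ratios over WT (vertical axis) of the 8 myelin genes, AtrxdE2 in red left of AtrxdE2+TMPyP4 in blue. Bars give the main values after loess, diamonds the authors' value table, dashes the values after median centring, and the broken line a 2-fold lower level. Mbp passes that line only in AtrxdE2, Mag lies at 0.034 in AtrxdE2+TMPyP4, and after median centring Mag and Ugt8a lie at 0.40 and 0.30 there.

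Mbp encodes myelin basic protein, which binds the inner faces of the membrane and is needed for compaction. Its signal above the blank spots was 1951 in AtrxdE2 and 3253 in WT on the first array, and 6833 in AtrxdE2+TMPyP4 and 4448 in WT on the second. AtrxdE2 was the dimmest of the 4 channels, although Cy3 had the higher median signal, and AtrxdE2+TMPyP4 was the brightest. The ratio over WT was 0.399 in AtrxdE2 and 0.655 in AtrxdE2+TMPyP4. With the offset and loess of the main setting these stood at rank 1 and rank 57 from the lowest of 13630 genes, and Mbp was the single gene at least 2-fold lower in AtrxdE2 (0.00734% of genes). In the authors' deposited table, which has neither step, Mbp stood at rank 13 in AtrxdE2 and rank 484 in AtrxdE2+TMPyP4 of 13633 genes, and 108 genes were at least 2-fold lower in AtrxdE2. None of the 500 genes nearest to Mbp in signal lay lower in AtrxdE2, and 12 of 500 did in AtrxdE2+TMPyP4. With the local background Mbp was at -1.22 in AtrxdE2 and -0.29 in AtrxdE2+TMPyP4 on the log2 scale, beside -1.32 and -0.61 in the main setting. After quantile normalization the log2 signal was 10.68 in AtrxdE2 and 12.11 in AtrxdE2+TMPyP4, against 12.02 and 12.66 in the WT channels. AtrxdE2 thus lay below both WT hybridisations and AtrxdE2+TMPyP4 between them. The locus also gives rise to Golli transcripts in neurons and immune cells, and the annotation does not say which transcripts the probe detects.

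Mobp encodes a small basic protein that, like myelin basic protein, sits at the cytoplasmic face of the membrane in the compact layers. It had a signal of 1836 in AtrxdE2 and 2392 in WT, and of 4219 in AtrxdE2+TMPyP4 and 3113 in WT. As for Mbp, AtrxdE2 was the dimmest channel and AtrxdE2+TMPyP4 the brightest. The ratio over WT was 0.507 in AtrxdE2 and 0.583 in AtrxdE2+TMPyP4, at ranks 2 and 17 from the lowest in the main setting and at ranks 90 and 203 in the authors' deposited table. Its quantile-normalized log2 signal was 10.58 in AtrxdE2 and 11.41 in AtrxdE2+TMPyP4, below both WT channels at 11.62 and 12.18. In the authors' deposited table Mobp was at -1.03 in AtrxdE2 over WT and so passed 2-fold, together with Mbp at -1.39, where 0.792% of the genes in that table did.

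Mal and Cldn11 encode membrane-spanning proteins of compact myelin: Mal a proteolipid of lipid rafts, and Cldn11 the claudin of its tight junctions. Mal had a signal of 2945 in AtrxdE2 and 2839 in WT, and of 2899 in AtrxdE2+TMPyP4 and 1988 in WT. The mutant signals were at or above WT in raw intensity, but genes of that brightness had a larger excess of Cy3, and the normalized ratio over WT was 0.684 in AtrxdE2 and 0.632 in AtrxdE2+TMPyP4. Cldn11 had a signal of 715 in AtrxdE2 and 691 in WT, and of 1211 in AtrxdE2+TMPyP4 and 704 in WT. Its ratio over WT was 0.679 in AtrxdE2 and 0.760 in AtrxdE2+TMPyP4. Of the 500 genes nearest in signal, 7 lay below each of these genes in AtrxdE2, and 7 below Mal and 15 below Cldn11 in AtrxdE2+TMPyP4. On the quantile-normalized scale both mutant channels lay below both WT channels for both genes, at 11.31 and 10.88 against 11.83 and 11.57 for Mal and at 9.34 and 9.70 against 9.89 and 10.14 for Cldn11.

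Cnp1 encodes the cyclic nucleotide phosphodiesterase of non-compact myelin, which keeps the cytoplasmic channels open. It had a signal of 3678 in AtrxdE2 and 3556 in WT, and of 3150 in AtrxdE2+TMPyP4 and 2378 in WT. The ratio over WT was 0.686 in AtrxdE2, at rank 116 from the lowest in the main setting, and 0.574 in AtrxdE2+TMPyP4, at rank 13. In the authors' deposited table Cnp1 stood at ranks 643 and 176 of 13633 genes. It was the lowest of the 8 genes in AtrxdE2+TMPyP4 in the main setting, but Fa2h was lowest with median centring, with plain subtraction and in the authors' deposited table, and Mal with the local background. Both mutant channels, at 11.61 and 11.01, lay below both WT channels at 12.17 and 11.82.

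Mag encodes myelin-associated glycoprotein, an adhesion molecule of the innermost, axon-facing membrane. It had a signal of 728 in AtrxdE2 and 589.9 in WT, and of 1006 in AtrxdE2+TMPyP4 and 429 in WT. Its ratio over WT was 0.801 in AtrxdE2, with 49 of the 500 nearest genes lower, and 1.02 in AtrxdE2+TMPyP4, with 259 of 500 lower. Its quantile-normalized log2 signal of 9.36 in AtrxdE2 was the lowest of the 4 channels, and 9.47 in AtrxdE2+TMPyP4 lay between the WT channels at 9.67 and 9.44. Among genes of this signal the WT channels differed with an SD of 0.35.

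Ugt8a and Fa2h make the galactolipids of myelin: Ugt8a transfers galactose to ceramide, and Fa2h hydroxylates the fatty acid of the ceramide. Ugt8a had a signal of 1115 in AtrxdE2 and 778 in WT, and of 1334 in AtrxdE2+TMPyP4 and 622 in WT. Its ratio over WT was 0.919 in AtrxdE2 and 0.936 in AtrxdE2+TMPyP4, with 149 and 153 of the 500 nearest genes lower, so it stood inside the spread of genes of its signal. Its direction turned under median centring, to 0.083 and 0.30 on the log2 scale. Fa2h was the dimmest of the 8, with a signal of 77.4 in AtrxdE2 and 70.6 in WT, and of 37.9 in AtrxdE2+TMPyP4 and 31.0 in WT. Its log2 ratios of -0.26 in AtrxdE2 and -0.30 in AtrxdE2+TMPyP4 were -0.52 and -0.88 in the authors' deposited table, which adds no offset to the signals. The quantile-normalized log2 signal of Fa2h was 6.93 in AtrxdE2, between the WT channels at 7.20 and 6.69, and 6.38 in AtrxdE2+TMPyP4, below both.

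**Figure D2:**
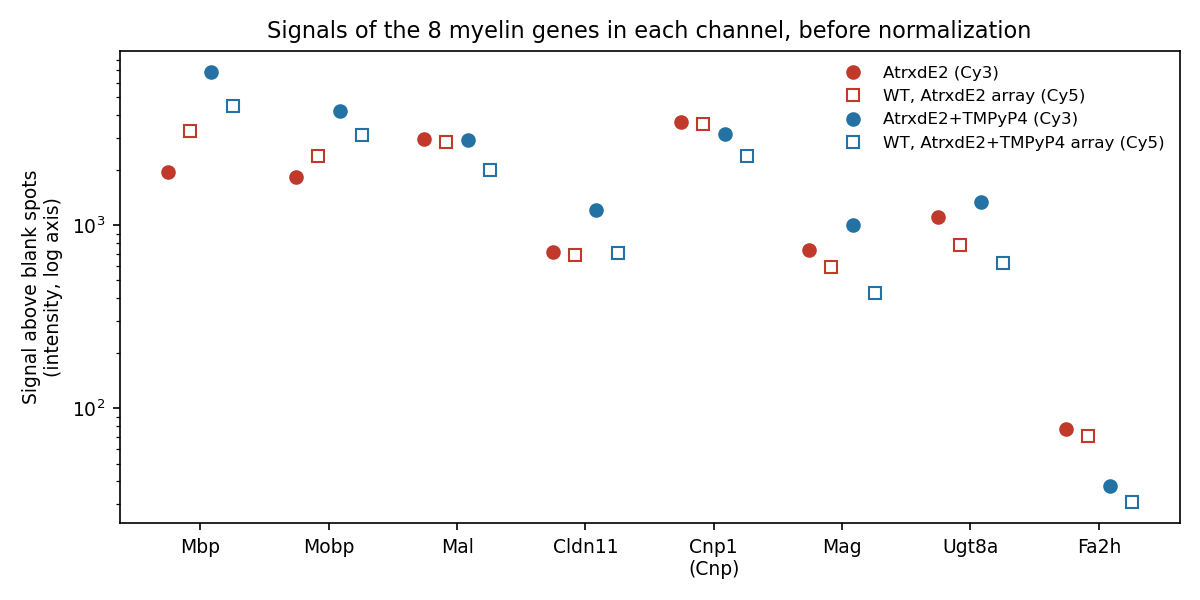
Signal above the blank spots (intensity, log axis) of the 8 myelin genes before normalization, with AtrxdE2 and its WT channel in red and AtrxdE2+TMPyP4 and its WT channel in blue. Filled circles are Cy3 (mutant pools) and open squares Cy5 (WT). For Mbp and Mobp the AtrxdE2 channel is dimmer than its WT channel, and for the other 6 it is the brighter of the pair; the AtrxdE2+TMPyP4 channel is brighter than its WT channel for all 8.

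Taken by channel, AtrxdE2 lay below both WT hybridisations in 7 of the 8 genes, with Fa2h the exception, where 36.3% of all measured genes did. AtrxdE2+TMPyP4 lay below both in 6 of 8, with Mbp and Mag the exceptions, where 32.0% did. None of the 8 was at least 2-fold higher or lower than WT in AtrxdE2+TMPyP4, where 0.161% and 0.0293% of genes were, and none passed 2-fold lower there in the authors' deposited table, where 0.499% did. Against the mean of both WT channels, Mbp was at -1.66 and Mobp at -1.31 in AtrxdE2, and at -0.24 and -0.49 in AtrxdE2+TMPyP4. Cnp1 was at -0.38 in AtrxdE2 and -0.99 in AtrxdE2+TMPyP4 by the same measure, and Mal at -0.39 and -0.82.

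The values of AtrxdE2+TMPyP4 relative to AtrxdE2 were taken as the difference of both ratios over WT. The 8 genes had a median of 0.094 (SD 0.30 over genes), against 0.015 for all genes, and 3 of 8 were below 0, against 47.3% of all genes. Mbp was the highest at 0.71, a linear ratio of 1.64, with 493 of the 500 nearest genes lower. Mag followed at 0.35, with 426 of 500 lower, and Mobp and Cldn11 were at 0.20 and 0.16. Ugt8a (0.026) and Fa2h (-0.043) were near 0, and Mal (-0.11) and Cnp1 (-0.26) lay on the other side. None passed 2-fold in either direction in the main setting, where 0.213% of genes were at least 2-fold higher and 0.103% at least 2-fold lower. Under median centring Mbp was at 1.0005 and so just passed 2-fold. The share of all genes was not taken under that setting. Cnp1 turned to 0.56 with the local background and to 0.020 with median centring, so its direction depended on both steps. Mal turned to 0.15 with median centring, under which Fa2h alone of the 8 was below 0, at -0.27. With the local background Fa2h turned to 0.051 and Ugt8a to -0.033.

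Both WT hybridisations differed for these genes as well. The WT signal was brighter on the AtrxdE2+TMPyP4 array than on the AtrxdE2 array by 0.64 log2 units for Mbp, 0.56 for Mobp and 0.26 for Cldn11. For the other 5 it was dimmer there, with differences of -0.50 for Fa2h, -0.35 for Cnp1, -0.27 for Mal, -0.22 for Mag and -0.095 for Ugt8a. In the direction of the AtrxdE2 array over the other, 3 of 8 were thus below 0, where 52.1% of all genes were, and none differed 2-fold, where 0.682% did. Among the 500 genes nearest in signal this difference had an SD of 0.38 for Mbp, 0.39 for Mobp and 0.24 for Fa2h. The Cy3 channels, compared directly, differed with the same sign as the WT channels in 7 of the 8 genes and in 74.2% of all measured genes. Mbp was 1.43 higher in AtrxdE2+TMPyP4 than in AtrxdE2 by that direct comparison, among the 0.917% of genes at least 2-fold higher, and Mobp was 0.83 higher. Cnp1 (-0.60), Fa2h (-0.55) and Mal (-0.43) were lower. Across the measured genes the differences of the 2 dyes had r = 0.73, and the points share the arrays. Mag was the exception, with 0.10 in Cy3 and -0.22 in WT.

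**Figure D3:**
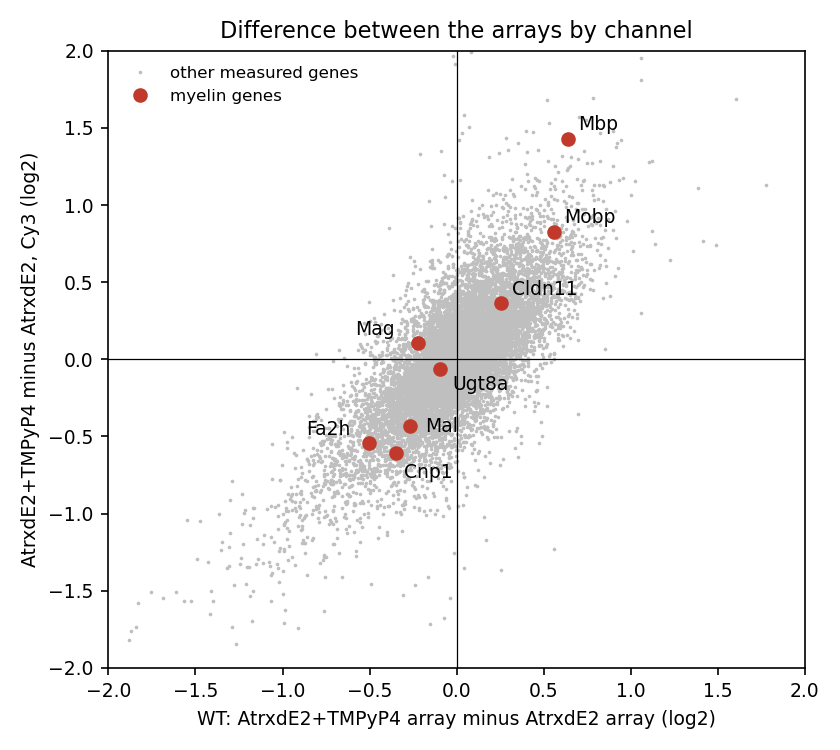
Difference between the arrays (AtrxdE2+TMPyP4 array minus AtrxdE2 array, quantile-normalized log2 signal) in the WT channel (horizontal axis) and in the mutant channel (vertical axis), 1 point a measured gene, with the 8 myelin genes in red. Mbp and Mobp lie high on both axes and Cnp1, Fa2h and Mal low on both; 5 genes lie outside the plotted range.

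The other genes of myelin and of the oligodendrocyte lineage were described through lists. Of 22 other myelin membrane proteins, 19 were measured. In AtrxdE2 their median log2 ratio over WT was -0.20 with 14 of 19 below 0, against 50.7% of all genes, and in AtrxdE2+TMPyP4 it was -0.092 with 14 of 19 below 0, against 47.2%. Under median centring the second of these turned to 0.045. Tspan2, a tetraspanin of myelin, was the lowest in AtrxdE2 at -0.80, and Pmp2, a fatty acid binding protein of peripheral myelin, the highest at 0.15. In AtrxdE2+TMPyP4 Tmem10 (now Opalin), an oligodendrocyte membrane glycoprotein, was the lowest at -0.73, and Pmp22, a tetraspan protein of peripheral myelin, the highest at 0.19. Between the mutant pools the extremes were Gpr37, a receptor that restrains oligodendrocyte differentiation, at -0.41 and the tetraspanin Cd82 at 0.50.

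The list of cytoplasmic and secreted proteins of mature oligodendrocytes came closest to the 8 myelin genes among the 6 lists. Of its 34 measured genes, 30 were below 0 in AtrxdE2 (50.7% of all genes) and 30 in AtrxdE2+TMPyP4 (47.2%), with medians of -0.25 and -0.23. Cryab, a small heat shock protein, was at -0.95 in AtrxdE2 and -0.071 in AtrxdE2+TMPyP4, with a signal of 493 in AtrxdE2 and 651 in WT, and of 1349 in AtrxdE2+TMPyP4 and 617 in WT. It was the highest of the list between the mutant pools, at 0.88. Bin1, a membrane-curving protein that neurons also express, ran the other way, at 0.24 in AtrxdE2 and -0.63 in AtrxdE2+TMPyP4. Trf, the iron carrier transferrin, was at -0.28 in both. Car2, carbonic anhydrase 2, was at -0.41 in AtrxdE2 and -0.27 in AtrxdE2+TMPyP4. Plekhb1 was the lowest in AtrxdE2+TMPyP4 at -0.63, and Gsn, the actin-severing gelsolin, the highest at 0.19. After median centring the list's medians were -0.12 and 0.048, so the direction in AtrxdE2+TMPyP4 turned.

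The 26 measured genes of myelin lipid synthesis and turnover had medians of -0.089 in AtrxdE2, with 19 below 0 (50.7% of all genes), and -0.064 in AtrxdE2+TMPyP4, with 17 below 0 (47.2%), which turned to 0.13 after median centring. Aspa, which frees acetate from N-acetylaspartate, was the lowest in AtrxdE2 at -0.48, and the desaturase Scd1 the highest at 0.32. In AtrxdE2+TMPyP4 AI427122 (now Pls1, an actin-bundling plastin and not a lipid enzyme) was the lowest at -0.34. Enpp2, the secreted lysophospholipase autotaxin, was at 1.32 in AtrxdE2+TMPyP4 over WT and 1.23 over AtrxdE2, with a signal of 12205 in AtrxdE2+TMPyP4 and 2051 in WT. Enpp2 is also made by the choroid plexus. Sptlc1, a subunit of the enzyme that starts sphingolipid synthesis, was the lowest between the mutant pools at -0.26.

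The regulators stood nearer to 0. The 16 measured transcription factors had medians of -0.063 in AtrxdE2 and -0.079 in AtrxdE2+TMPyP4, with 12 below 0 in each, against 50.7% and 47.2% of all genes. Under median centring the first turned to 0.0085. In the authors' deposited table, which adds no offset, the medians of these factors were -0.14 and -0.185. Sox10, which drives myelin gene transcription, was at -0.13 in AtrxdE2 and -0.50 in AtrxdE2+TMPyP4, and was the lowest of the list both there and between the mutant pools (-0.36). The lineage factor Olig1 was at 0.012 and -0.074, and its partner Olig2 at 0.22 and -0.11. Gm98 (now Myrf) was dim, with a signal of 27.5 in AtrxdE2 and 14.7 in WT, and of 25.8 in AtrxdE2+TMPyP4 and 13.1 in WT, and had log2 ratios of 0.065 and -0.042. Hes5, a Notch target, was the lowest in AtrxdE2 at -0.33, and the deacetylase Hdac2 the highest in AtrxdE2+TMPyP4 at 0.32 and between the mutant pools at 0.53.

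The 23 measured receptors, ligands and inhibitors of myelination had medians of 0.0074 in AtrxdE2 and 0.058 in AtrxdE2+TMPyP4, with 10 and 7 below 0, against the same 50.7% and 47.2% of all genes. Rtn4r, the Nogo receptor, was at -0.58 in AtrxdE2 and highest between the mutant pools at 0.77. Igf1r, the receptor of insulin-like growth factor, was the highest in AtrxdE2 at 0.61. Thra, a thyroid hormone receptor, was at -0.0013 in AtrxdE2 and -0.75 in AtrxdE2+TMPyP4, where Bmp4, a ligand that holds back oligodendrocyte differentiation, was the highest at 0.67. The 17 measured genes of oligodendrocyte precursors had medians of 0.012 in AtrxdE2 and -0.10 in AtrxdE2+TMPyP4, with 8 and 12 below 0, and the first turned to -0.056 under median centring. Bcas1, a marker of early myelinating oligodendrocytes, was at -0.0077 in AtrxdE2 and -0.56 in AtrxdE2+TMPyP4. Cspg5, a proteoglycan, was the lowest in AtrxdE2 at -0.47, and Tnr, an extracellular matrix protein, the highest in AtrxdE2+TMPyP4 at 0.11. Sox10, Olig1 and Olig2 stand in both the precursor and the transcription factor lists.

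**Figure D4:**
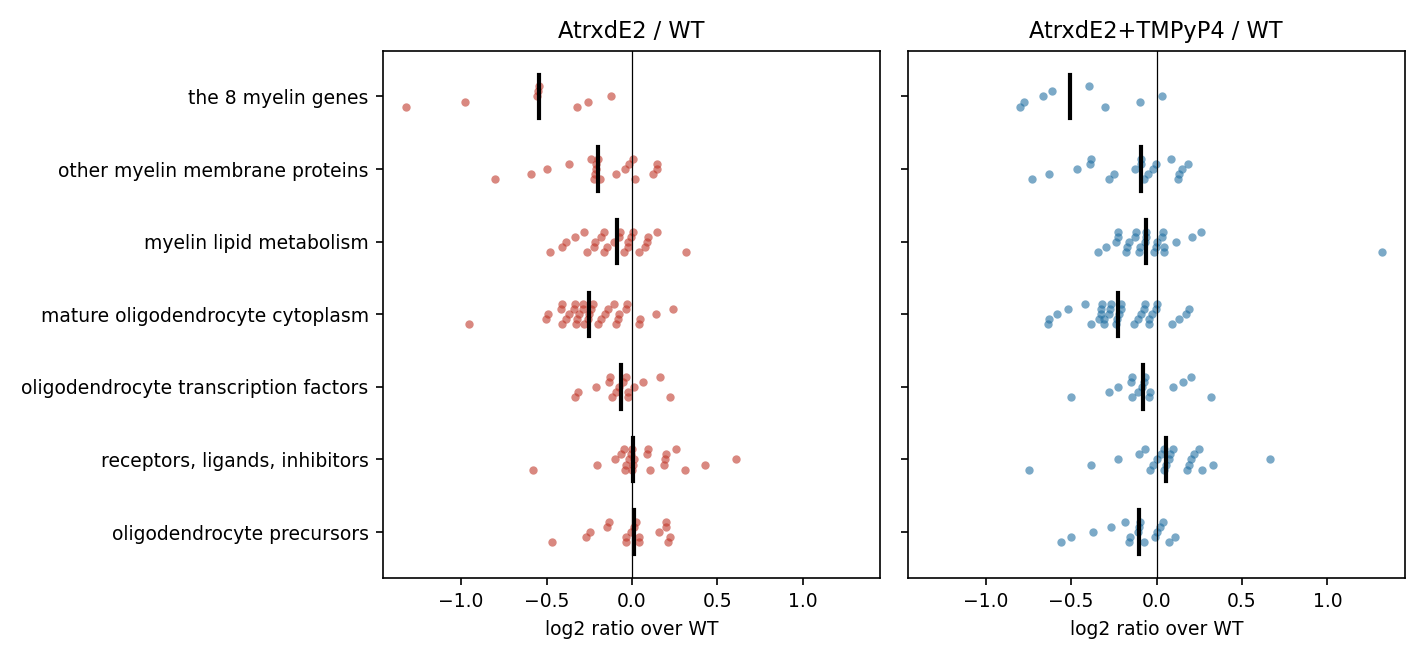
Log2 ratios over WT (horizontal axis) of the measured genes of 7 lists, AtrxdE2 in the left panel and AtrxdE2+TMPyP4 in the right, 1 point a gene, with the median of each list as a vertical bar. The 8 myelin genes have medians of -0.55 and -0.50 and the mature oligodendrocyte genes of -0.25 and -0.23, and the precursor list lies at 0.012 and -0.10.

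Markers of other cells differed between the pools too, and their part in the myelin values was not tested. In AtrxdE2+TMPyP4 all 9 measured choroid plexus genes were above 0 over WT and 8 of 9 at least 2-fold higher, from Otx2 at 0.62 to Ttr at 6.59, where 47.2% of all genes were below 0 and 0.161% at least 2-fold higher. In AtrxdE2 the choroid plexus genes ran from Kcne2 at -0.15 to Ttr at 1.59, with a signal for Ttr of 353 in AtrxdE2 and 44.3 in WT. The summed signal of the list was 74660 in AtrxdE2+TMPyP4 and 2349 in WT, against 4643 in AtrxdE2 and 2691 in WT on the other array. All 11 measured genes of meninges and fibroblasts were above 0 in both pools, where 50.7% of all genes were below 0 in AtrxdE2 and 47.2% in AtrxdE2+TMPyP4. These 11 genes had medians of 0.39 in AtrxdE2 and 0.71 in AtrxdE2+TMPyP4. Their extremes were Lum (0.082) and Mgp (1.02) in AtrxdE2, and Col1a1 (0.095) and Crabp2 (1.25) in AtrxdE2+TMPyP4. Their summed signal was 3076 in AtrxdE2 and 1267 in WT, and 4375 in AtrxdE2+TMPyP4 and 925 in WT. The 10 measured genes of striatal neurons, a neighbouring tissue, had medians of -0.13 in AtrxdE2 and -0.51 in AtrxdE2+TMPyP4. They ran from Penk1 (now Penk) at -0.96 to Tac1 at 0.24 in AtrxdE2, and from Rxrg at -1.17 to Tac1 at 0.14 in AtrxdE2+TMPyP4. Their summed signal was 5878 in AtrxdE2 and 6231 in WT, and 4685 in AtrxdE2+TMPyP4 and 3222 in WT. The authors' deposited table has neither the offset nor loess. There the medians in AtrxdE2+TMPyP4 were 3.46 for choroid plexus (1.44 in the main setting), 0.98 for meninges and -0.81 for striatal genes. In AtrxdE2 they were 0.08, 0.77 and -0.36. The 8 myelin genes had medians of -0.60 in AtrxdE2 and -0.59 in AtrxdE2+TMPyP4 there. Every measured marker was above background in all 4 channels, as the rule for a measured probe requires, and the choroid plexus genes Aqp1 and Cldn2 were not measured. The summed signal of the 8 myelin genes was 13046 in AtrxdE2 and 14170 in WT, and 20690 in AtrxdE2+TMPyP4 and 13713 in WT. All these sums are of raw signals, in which Cy3 and Cy5 cannot be compared directly. Bright genes weigh most in them: Ttr alone had a signal of 60791 in AtrxdE2+TMPyP4.

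The remaining lists were less uniform. Of the markers of the labelled tissue, the 3 measured CA1 pyramidal genes had medians of 0.047 in AtrxdE2 and -0.28 in AtrxdE2+TMPyP4. The 6 dentate granule genes had medians of -0.048 and 0.033 in the same order. Fibcd1 of the CA1 list had a named probe but was not measured. All 3 CA1 genes were below 0 in AtrxdE2+TMPyP4, where 47.2% of all genes were. They lay between Nov at -0.33 and Wfs1 at -0.28, and their median turned to 0.11 under median centring. In AtrxdE2 they ran from Nov at -0.22 to Wfs1 at 0.078. The dentate genes ran from Stxbp6 at -0.21 to Dsp at 0.16 in AtrxdE2 and from Lct at -0.0071 to Stxbp6 at 0.28 in AtrxdE2+TMPyP4. General neuronal genes had medians of 0.017 and -0.0041, between Snap25 at -0.67 and Eno2 at 0.43 in AtrxdE2 and between Eno2 at -0.29 and Nefh at 0.97 in AtrxdE2+TMPyP4. Astrocyte genes had medians of -0.041 and 0.11, between Gjb6 at -0.40 and Slc1a2 at 0.41 in AtrxdE2 and between Glul at -0.93 and Slc1a2 at 0.58 in AtrxdE2+TMPyP4. Microglial genes had medians of -0.061 and -0.11, between P2ry12 at -0.70 and Trem2 at 0.15 in AtrxdE2 and between Tyrobp at -0.26 and Siglech at 0.16 in AtrxdE2+TMPyP4, and both turned, to 0.12 and 0.22, under median centring. Endothelial genes had medians of 0.073 and 0.094, between Slco1c1 at -0.060 and Flt1 at 0.54 in AtrxdE2 and between Cldn5 at -0.28 and Ly6c (now Ly6c1) at 0.24 in AtrxdE2+TMPyP4. For peripheral myelin, the 4 measured Schwann cell genes, which include Pmp2 and Pmp22, had medians of 0.12 and 0.16, with Egr2 lowest at -0.50 in AtrxdE2 and -0.65 in AtrxdE2+TMPyP4 and Pmp2 (0.15) and Pmp22 (0.19) highest. Under median centring, the AtrxdE2+TMPyP4 medians also turned for general neuronal genes (0.45), dentate granule genes (-0.25) and Schwann cell genes (-0.13). The astrocyte median turned in AtrxdE2, to 0.054.

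The 10 genes outside the 9 whose profile over the 4 channels was most like the mean profile of the myelin genes were Ndufa4, Mtap1b (now Map1b), Cmtm5, Gem, Pde1b, Gpr6, Cnfn, Lmo3, Ppp2r2a and Carhsp1. Likeness was the Euclidean distance between quantile-normalized log2 signals centred per gene, and ran from 0.094 for Ndufa4 to 0.16 for Carhsp1. The mean profile was 0.26 above the gene's own mean in both WT channels, 0.33 below it in AtrxdE2 and 0.19 below it in AtrxdE2+TMPyP4. The myelin genes were themselves farther from it, from 0.24 for Cldn11 to 1.11 for Mbp. Ndufa4 had log2 ratios of -0.59 in AtrxdE2 and -0.36 in AtrxdE2+TMPyP4, and Cmtm5, which oligodendrocytes express, of -0.44 and -0.46.

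The ratios shifted with normalization in a way that touched all bright genes. After centring each array on its median in place of loess, the 500 genes nearest in signal to Mbp had a median of 0.18 in AtrxdE2 and 0.46 in AtrxdE2+TMPyP4, and Mbp itself was at -1.13 and -0.13. Cldn11 was at -0.36 and -0.0004 by that scaling, and Mag at -0.12 and 0.40. Relative to the 500 nearest genes, the median of the 8 myelin genes was -0.55 in AtrxdE2 and -0.50 in AtrxdE2+TMPyP4 under median centring, and -0.54 and -0.50 under loess. In AtrxdE2 the 2 lowest genes were Mbp and Mobp under 6 of the 7 settings plotted; with the local background they were Mbp and Cnp1.

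**Figure D5:**
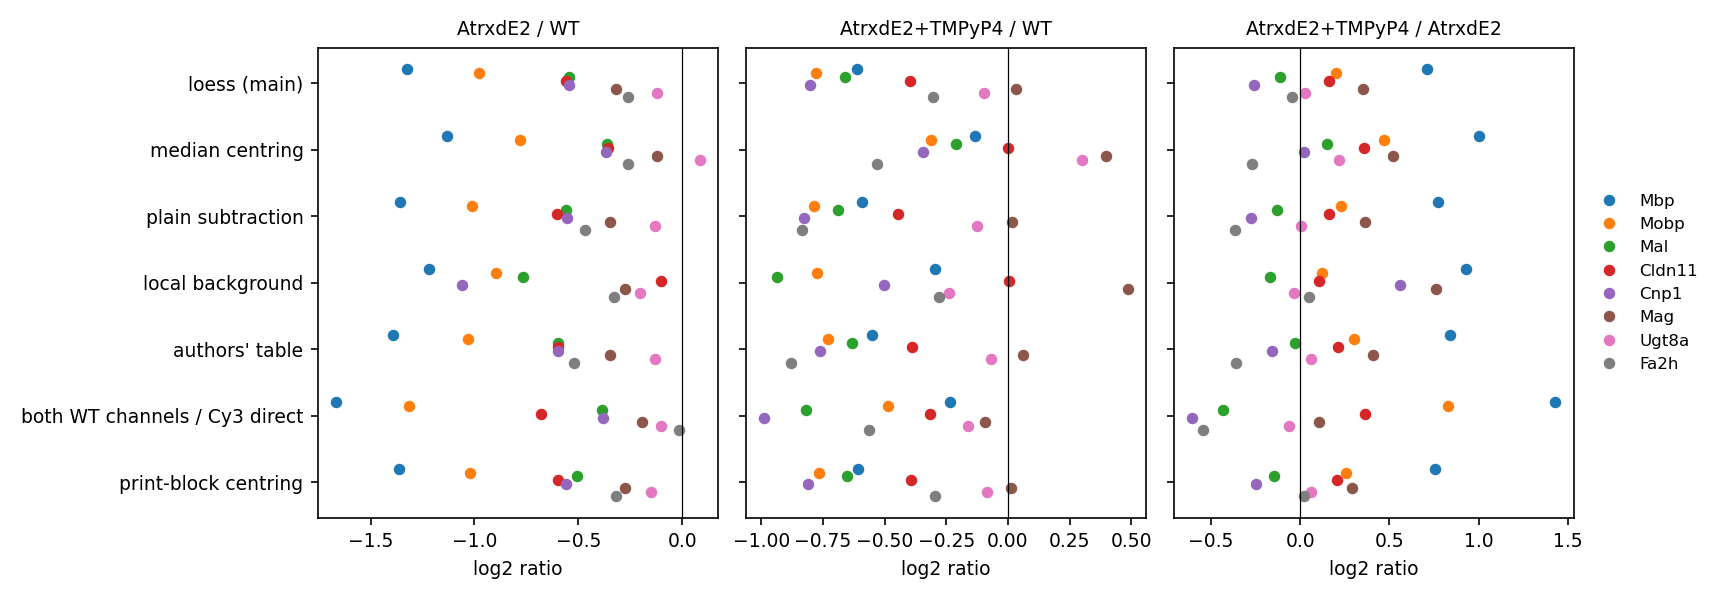
Log2 ratios (horizontal axis) of the 8 myelin genes, 1 colour each, under 7 settings (rows), for AtrxdE2 over WT, AtrxdE2+TMPyP4 over WT and AtrxdE2+TMPyP4 over AtrxdE2 (panels from left to right). Mbp is the lowest gene of every row in the left panel and the highest of every row in the right panel, and the middle panel has no gene that is lowest throughout.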

How the data were processed

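Hippocampal RNA pools were measured on 2 arrays, 1 for each mutant pool against WT. Per the file headers, the deposited scanner tables hold the median intensity of each spot and its local background in both channels, merged from several gains. The scanner software is not given in the sources used here. Normalized log2 ratios, mutant over WT, stand in the authors' deposited table, per the labels. Set against the scanner values, each equals the log2 ratio of blank-subtracted signals less a fixed number, 0.652 for the first array and 1.17 for the second (within 0.01 for 99.995% and 99.9947% of values), which settles scale and direction; both medians are 0.

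With limma 3.58.1 in R 4.3.3, the background was corrected by normexp (offset 50) on the mean of the 2736 blank spots, trimmed by a share of 0.05 at each end, and loess was run within each array with weight 0 for control spots. The local background, which reached 4365 beside the Mbp spot, served as an alternative only. Of 23473 probes, 18664 were measured, that is not marked bad and more than 2 SD above the blank mean in all 4 channels. Levels across arrays were compared after quantile normalization of the 4 channels. The script was tested on simulated data. Of the 16631 probes with a named gene, 1 symbol stands for each. A control of 24 spots had an SD of 0.11 in log2 ratio on the AtrxdE2 array and 0.087 on the other, which measures spots within an array only.

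Genes named were all members, the highest and lowest of each pathway list in each comparison and of each cell type list over WT, those past 2-fold in the pathway lists, a few lineage genes by name, and the 10 genes nearest in profile. The members and lists were chosen with earlier results of these data known. The lists' symbols were looked up in RefSeq's gene table. With 1 pool a group no test was possible, and the number of arrays limits the precision.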

Additional observations from a re-analysis of the deposited data

Results flagged for a closer look

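Mag had opposite signs over WT in the mutant pools, with a log2 ratio of -0.32 in AtrxdE2 and 0.0341 in AtrxdE2+TMPyP4, and the difference was not tested. The authors' deposited table gives -0.35 and 0.06, median centring -0.12 and 0.40, and the mean of both WT channels -0.20 and -0.091, so that by the last measure Mag was below 0 in both pools.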

How the results depend on the processing

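Over all settings run, the median log2 ratio of the 8 myelin genes lay between -0.60 and -0.36 for AtrxdE2 over WT, between -0.64 and -0.17 for AtrxdE2+TMPyP4 over WT and between 0.021 and 0.29 for the difference, and its sign did not turn. Only 1 median shifted by more than 0.29, the SD of the difference between the WT channels over genes: AtrxdE2+TMPyP4 over WT was -0.17 under median centring. The count of the 8 genes at least 2-fold lower in AtrxdE2 was 1 in the main setting, where 0.00734% of all measured genes were. It was 2 in the authors' deposited table, where 0.792% of genes were. It was also 2 with plain subtraction, with the local background, against the mean of both WT channels and with print-block centring. Without Mbp it was 0. The share of all genes was taken only for the main setting and the authors' deposited table, so the other counts of 2 have no such comparison. Print-block centring and the comparison with the 500 nearest genes were added after seeing the data. The WT difference had a median of 0.16, of 0.24 with median centring and of 0.22 without Mbp. No paired analysis was possible because each group is 1 pool with no replicate number, and no replicate could be left out. The offset of 50 pulls dim genes towards 0: Fa2h was at -0.47 in AtrxdE2 and -0.83 in AtrxdE2+TMPyP4 with plain subtraction and no offset.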

Other observations

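The local background around the Mbp spot was 583 in AtrxdE2 and 944 in WT on the first array, and 4365 in AtrxdE2+TMPyP4 and 2806 in WT on the second. Around the Mobp spot it was 86.5 in AtrxdE2 and 73.2 in WT, and 1796 in AtrxdE2+TMPyP4 and 836 in WT.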
